A study of Mus musculus with 10 samples.

Results

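The STAT factors and JAK kinases described here are 9 genes: *Stat2*, *Stat3*, *Stat4*, *Stat5a*, *Stat5b*, *Stat6*, *Jak1*, *Jak2* and *Jak3*. They were chosen by gene symbol, as 9 of the 53974 genes in the RNA-seq table, and the ATAC-seq regions lying within 1000 bp of an end of these genes were chosen with them, 6 of 16600 regions. JAK kinases are bound to the inner part of cytokine receptors. When a cytokine brings receptor chains together, the kinases phosphorylate the receptor and the STAT proteins that dock on it, and the STATs pair up, enter the nucleus and switch on target genes, among them the SOCS genes whose products shut the signal off. In the injured retina this pathway is best known for the response of ganglion cells and glia to CNTF, LIF and other cytokines of the gp130 group, and in T cells, NK cells and macrophages the same kinases and factors carry interleukin and interferon signals.

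The material was retina of C57BL/6 mice, aged 8-10 weeks by label, that carried loxP-flanked *Arid1a* alleles (Arid1a fl/fl); *Arid1a* encodes a DNA-binding subunit of the SWI/SNF chromatin-remodelling complex. Eyes received AAV2-GFP (WT, genotype label Arid1a fl/fl) or AAV2-Cre (cKO, genotype label Arid1a del/del), both under the CMV promoter, which is active in many cell types, and the titres of the viruses differed. The optic nerve was crushed (ONC) 2 weeks later in all mice, with no uninjured group among these libraries, and 3 days after ONC live cells stained with an antibody to Thy1.2 were sorted, from 4 to 5 retinas a sample. There were 3 RNA-seq libraries under each label, and 2 under each label for ATAC-seq, which maps DNA open to a transposase.

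The labels name these cells retinal ganglion cells (RGCs), and the defining markers were low. *Pou4f2*, an RGC transcription factor named here after its values were seen, was listed at 0 in 5 of the 6 RNA-seq libraries, and *Slc17a6*, the RGC glutamate transporter, lay between 0.593 and 1.57 TPM (a level scaled for transcript length and for the library's total). *Rbpms*, the first marker listed, lay between 1.82 and 6.43 TPM. The 12 RGC markers together summed to 186 to 269 TPM in the libraries labelled WT and 246 to 281 in those labelled cKO. Much of each sum was *Thy1*, the gene of the sorted antigen (51.9 to 88.5 and 94.4 to 129 TPM), and *Isl1* (51.9 to 98 and 55.8 to 104 TPM). *Gap43* added 24.3 to 67.9 and 24.4 to 34.7 TPM, and *Nefl* 5.47 to 20.6 and 17.7 to 19.1 TPM. *Isl1* is also counted here as a bipolar cell marker, so the sum is not a measure of RGCs alone. *Thy1*, *Isl1*, *Gap43* and *Nefl* were named after their values were seen. The summed level of 8 rod markers was 12200 to 17000 TPM in the libraries labelled WT and 24900 to 47600 in those labelled cKO. The summed level of 12 T cell markers was 408 to 1170 TPM and 115 to 268 TPM, respectively, and Thy1.2 is also carried by T cells. *Arid1a* itself was not lower in the libraries labelled cKO (14.9 ± 3.6 TPM labelled WT, 23.9 ± 4.62 labelled cKO, SD, n = 3 each, limma adjusted p = 0.274). It lay wholly higher there, as did 18.7% of all genes tested, though the nearest libraries of the 2 labels both round to 18.8 TPM. RNA directions are therefore given by label. In bulk samples such as these, fewer cells of a type and less RNA per cell cannot be told apart.

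The ATAC-seq regions of these genes fell on their promoters. Below are the 250 bases before the transcription start of 7 of the genes, from RefSeq on GRCm38.p6, 5′ to 3′ on the gene's own strand. *Stat2*, *Stat3*, *Jak1* and *Jak2* are shown because their windows lay in the regions with the largest loss of reads in cKO, and *Stat5b*, *Stat4* and *Jak3* because they had no region. The windows are chr10:128270248-128270497 (plus strand, *Stat2*), chr11:100939541-100939790 (minus, *Stat3*), chr4:101265224-101265473 (minus, *Jak1*), chr19:29251553-29251802 (plus, *Jak2*), chr11:100850582-100850831 (minus, *Stat5b*), chr1:51986898-51987147 (plus, *Stat4*) and chr8:71676133-71676382 (plus, *Jak3*). Capitals mark each match, on either strand, to GGGCGG (the GC box, bound by Sp1) or to GAAA, a pair of any bases and GAAA again (the core of the interferon-stimulated response element).
Stat2: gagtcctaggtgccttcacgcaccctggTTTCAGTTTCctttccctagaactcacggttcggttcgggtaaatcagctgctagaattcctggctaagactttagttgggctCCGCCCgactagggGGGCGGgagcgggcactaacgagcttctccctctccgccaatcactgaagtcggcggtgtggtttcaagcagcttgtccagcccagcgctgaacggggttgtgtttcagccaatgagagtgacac
Stat3: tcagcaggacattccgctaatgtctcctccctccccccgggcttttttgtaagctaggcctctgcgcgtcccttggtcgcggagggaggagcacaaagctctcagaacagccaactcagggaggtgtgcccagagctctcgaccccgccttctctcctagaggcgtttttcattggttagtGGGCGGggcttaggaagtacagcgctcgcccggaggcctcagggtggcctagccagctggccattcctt
Jak1: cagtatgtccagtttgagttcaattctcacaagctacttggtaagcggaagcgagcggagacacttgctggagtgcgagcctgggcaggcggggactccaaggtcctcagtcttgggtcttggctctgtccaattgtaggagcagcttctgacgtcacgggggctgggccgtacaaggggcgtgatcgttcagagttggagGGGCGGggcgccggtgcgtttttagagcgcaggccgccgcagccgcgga
Jak2: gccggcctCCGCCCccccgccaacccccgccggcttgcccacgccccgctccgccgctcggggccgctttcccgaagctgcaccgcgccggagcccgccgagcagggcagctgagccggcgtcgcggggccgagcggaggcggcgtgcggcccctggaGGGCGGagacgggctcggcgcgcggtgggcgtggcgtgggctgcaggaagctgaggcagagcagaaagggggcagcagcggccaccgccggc
Stat5b: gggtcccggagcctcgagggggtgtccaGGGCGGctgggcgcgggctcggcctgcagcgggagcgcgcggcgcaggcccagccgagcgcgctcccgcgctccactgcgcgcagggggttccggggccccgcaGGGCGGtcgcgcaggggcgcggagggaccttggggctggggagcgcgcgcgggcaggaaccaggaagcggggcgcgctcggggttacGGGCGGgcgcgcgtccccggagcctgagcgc
Stat4: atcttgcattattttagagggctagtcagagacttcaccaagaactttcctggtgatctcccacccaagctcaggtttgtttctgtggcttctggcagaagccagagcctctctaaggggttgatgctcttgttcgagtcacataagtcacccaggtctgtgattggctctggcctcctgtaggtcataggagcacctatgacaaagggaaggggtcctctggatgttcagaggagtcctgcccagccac
Jak3: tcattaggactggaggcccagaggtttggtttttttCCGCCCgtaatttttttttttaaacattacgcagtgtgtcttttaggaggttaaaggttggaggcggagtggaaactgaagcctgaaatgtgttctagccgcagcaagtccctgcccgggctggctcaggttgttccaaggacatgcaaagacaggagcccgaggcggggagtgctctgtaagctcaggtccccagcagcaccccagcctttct

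The 9 genes have 12 such windows in RefSeq, and 7 of them held the GC box, 5 of the 6 that overlap an ATAC-seq region and 2 of the 6 that do not. The *Stat6* window overlaps a region and held none, with 6 CpG pairs. Of the windows printed, the GC box stood 3 times in *Stat5b*, 2 times in *Stat2* and *Jak2*, once in *Stat3*, *Jak1* and *Jak3*, and not in *Stat4*. Of 32807 mouse promoter windows of this length, 32.7% held it, 66.8% of the 8320 that overlap an ATAC-seq region and 21.2% of those that do not. CpG pairs numbered 37 in the *Jak2* window, 19 in *Jak1*, 14 in *Stat2* and 13 in *Stat3*, against a median of 19 for windows with a region. *Stat4* held 1 and *Jak3* 8, against a median of 3 for windows without a region, and *Stat5b* held 40 although no region covered it. The interferon element core was found once in *Stat2*, on the minus strand at position -222 from the start, and once before a second *Stat4* start (chr1:52007990-52008239), where it reads GAAAGTGAAA at position -97; 2.97% of all windows held it. The letters TTCNNNGAA, the site that STAT dimers bind, were in none of the members' windows and in 7.02% of all windows. These are matches of letters, and binding was not measured.

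*Jak1* and *Stat3* were the most abundant of the 9 transcripts and *Jak2* the least, in libraries of either label. *Jak1* averaged 224 ± 62.2 TPM in the libraries labelled WT and 193 ± 51.4 in those labelled cKO, *Stat3* 145 ± 32.9 and 109 ± 39.0, and *Stat2* 70.7 ± 3.04 and 57.1 ± 10.1 (SD, n = 3 each). *Jak1* ranked at percentile 95.8 and *Stat3* at 92.1 of the 17555 genes tested, and *Jak2*, with 3.43 ± 1.16 and 2.63 ± 0.474 TPM, at percentile 18.7. In the libraries labelled WT the order went on with *Stat6*, *Jak3*, *Stat4*, *Stat5a* and *Stat5b*, whose neighbours in the order all overlapped. *Jak1* and *Stat3* also overlapped, while *Stat3* against *Stat2*, *Stat2* against *Stat6* and *Stat5b* against *Jak2* did not. In the libraries labelled cKO *Stat4* stood below both *Stat5* genes and without overlap with *Stat5a*.

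**Figure D1:**
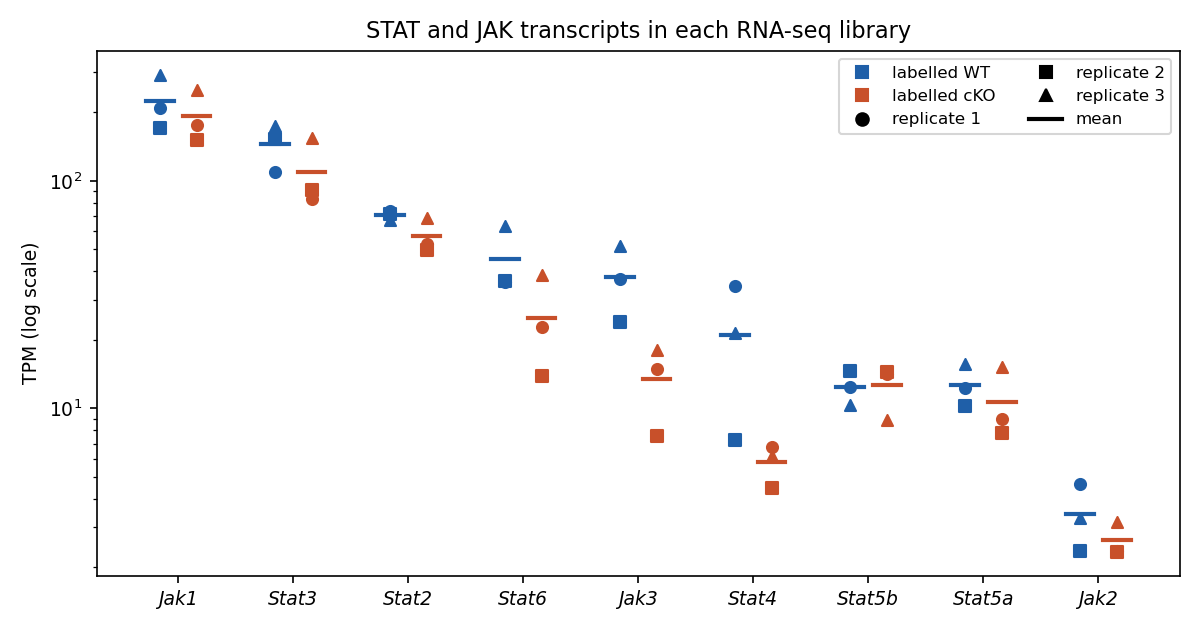
Level of each gene (TPM, log scale) in the 6 RNA-seq libraries, blue for the label WT and orange for cKO, with a symbol for each replicate number and a bar at each mean. *Jak1* sits highest, between 151 and 293 TPM, *Jak2* lowest, and the colours are fully apart for *Jak3* and *Stat4*.

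*Jak3*, the kinase that binds the common gamma chain shared by the IL-2, IL-4, IL-7, IL-9, IL-15 and IL-21 receptors, had the lowest p of the 9 genes. It stood at 36.9, 23.9 and 51.9 TPM in WT replicates 1 to 3 and at 14.9, 7.54 and 18.0 TPM in cKO replicates 1 to 3. All libraries labelled cKO lay below all labelled WT. The log2 fold change, cKO minus WT on log2(TPM + 1), was -1.43 (SE 0.41), 2.69-fold lower, with an unadjusted limma p of 0.00985, a limma adjusted p of 0.155 and an exact two-sided permutation p of 0.1, the smallest that 3 against 3 can give.

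*Stat4* carries the IL-12 signal in T and NK cells. Its level was 34.6, 7.29 and 21.4 TPM in WT replicates 1 to 3 and 6.75, 4.46 and 6.16 TPM in cKO replicates 1 to 3. The groups were apart, but WT replicate 2 lay only just above the highest library labelled cKO. The log2 fold change was -1.48 (SE 0.53), 2.79-fold lower (unadjusted limma p = 0.0268, limma adjusted p = 0.213, exact permutation p = 0.1).

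*Stat6* carries IL-4 and IL-13 signals. Its levels were 36, 36.1 and 63.4 TPM under the label WT and 22.7, 13.9 and 38.6 TPM under cKO. cKO replicate 3 overlapped with WT replicates 1 and 2. The log2 fold change was -0.89 (SE 0.41; limma adjusted p = 0.304, exact permutation p = 0.3).

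*Stat3* carries the signals of CNTF, LIF, IL-6 and IL-10. Its levels were 109, 153 and 174 TPM in WT and 83.0, 90.9 and 154 TPM in cKO replicates 1 to 3. The third replicate was highest under both labels, and the groups overlapped. The log2 fold change was -0.44 (SE 0.31; limma adjusted p = 0.488).

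*Stat2* is the partner that brings IRF9 into the complex formed after type I interferon. Its levels were 73.4, 71.3 and 67.4 TPM under the label WT and 52.8, 49.8 and 68.6 TPM under cKO. The libraries labelled WT were within a narrow range that cKO replicate 3 entered. The log2 fold change was -0.32 (SE 0.21; limma adjusted p = 0.46).

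*Stat5a* and *Stat5b* are near-identical neighbours on chromosome 11 that carry IL-2, IL-7, GM-CSF and growth hormone signals, so reads common to both could be split between them in the quantification and their separate values are uncertain. *Stat5a* was at 12.3, 10.2 and 15.7 TPM under the label WT and at 8.98, 7.80 and 15.2 TPM under cKO. *Stat5b* was at 12.4, 14.6 and 10.3 TPM and at 14.2, 14.5 and 8.90 TPM. Replicate 3 had the highest *Stat5a* and the lowest *Stat5b* under either label, which took the ratio of *Stat5a* to *Stat5b* to 1.52 and 1.71 there, against 0.537 to 0.994 in the other libraries. Neither gene separated the labels (log2 fold changes of -0.27, SE 0.33, and -0.0018, SE 0.29; limma adjusted p of 0.693 and 0.999).

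*Jak1*, which serves gp130, interferon and common gamma chain receptors, was at 208, 171 and 293 TPM under the label WT and at 176, 151 and 250 TPM under cKO. *Jak2*, which serves the receptors of erythropoietin, GM-CSF, growth hormone, IL-12 and interferon gamma, was at 4.66, 2.35 and 3.30 TPM and at 2.36, 2.34 and 3.17 TPM. For both kinases the groups overlapped. Their log2 fold changes were -0.21 (SE 0.29) and -0.26 (SE 0.31), with limma adjusted p of 0.726 and 0.678.

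Over the 9 genes, none passed an adjusted p of 0.05 in limma in either direction (background of 0% of genes tested lower and 0.0057%, 1 gene, higher). At an unadjusted p under 0.05, 2 were lower, *Jak3* and *Stat4*, against 6.45% of all genes tested, and 0 were higher, against 11.9%. The same 2 were the ones whose groups did not overlap, where 7.18% of all genes lay wholly lower. All 9 fitted log2 fold changes were below 0, against 38.9% of all genes, with a median of -0.32 beside a median of 0.16 over all genes tested. *Stat5b* turned above 0 when WT replicate 1, WT replicate 2 or cKO replicate 3 was left out (0.0016, 0.11 and 0.21). *Jak3* passed the unadjusted threshold with any 1 library left out. *Stat4* no longer passed it without WT replicate 1, WT replicate 3 or cKO replicate 2, which left *Jak3* as the only 1 of the 9 genes, or without cKO replicate 3 (limma adjusted p = 0.247 there), where *Jak3*, *Stat3* and *Stat6* passed. Scaling the libraries by the median of ratios took the all-gene median to 0.0145; relative to the all-gene median, *Stat5b* stood at -0.16, *Stat4* at -1.64 and *Jak3* at -1.59. With the replicate number as a block, *Jak3* (limma adjusted p = 0.0704), *Stat4* (0.113) and *Stat6* (0.13) were lower at an unadjusted p under 0.05, where 8.52% of all genes were.

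The make-up of the JAK transcripts gave the *Jak3* difference in another form and is not a separate result. *Jak1* and *Jak3* made up nearly all of the sum, so their shares mirror each other. *Jak1* made up 83.3%, 86.7% and 84.1% of the summed TPM of the 3 kinases in WT replicates 1 to 3, and 91.1%, 93.9% and 92.2% in cKO replicates 1 to 3. *Jak3* made up 14.8%, 12.1% and 14.9%, and 7.68%, 4.68% and 6.63%. The groups did not overlap, and the spread within a label was small (*Jak3* share 14 ± 1.6% and 6.33 ± 1.52%, SD, n = 3 each; exact permutation p = 0.1, the smallest possible). A share of this kind does not depend on the scaling between libraries. Among the 6 STAT transcripts no such shift was seen for *Stat3*, which made up 47.0 ± 6.79% and 49.0 ± 4.52% (exact permutation p = 0.6), or for *Stat2*, with 23.3 ± 3.74% and 26.3 ± 2.46% (p = 0.3, exact permutation). *Stat4* made up 12.5%, 2.49% and 6.06% under the label WT and 3.58%, 2.46% and 2.11% under cKO, with overlap (exact permutation p = 0.2). The summed TPM of the 6 STATs ran from 278 to 352 under the label WT and from 181 to 291 under cKO, which overlap.

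Markers of other cells moved with *Jak3* and *Stat4*. The 12 T cell markers all had fitted folds below 0 and 6 of them did not overlap between labels, with a median log2 fold change of -1.93. Of all genes tested, 38.9% had a fitted fold below 0 and 7.18% lay wholly lower. *Cd3e*, a chain of the T cell receptor complex, was at 83.1, 56.7 and 72.2 TPM under the label WT and 16.5, 12.4 and 9.13 TPM under cKO. NK cell markers summed to 90 to 317 TPM and 26.8 to 76.5 TPM, and B cell markers to 32.0 to 111 TPM and 10.8 to 21.5 TPM. The 12 myeloid markers summed to 1280 to 2320 TPM and 710 to 968 TPM, 11 of them with a fitted fold below 0. Per 100 TPM of summed T cell markers, *Jak3* stood at 3.15, 5.86 and 5.19 TPM in WT and 5.54, 6.58 and 7.08 TPM in cKO replicates 1 to 3, and *Stat4* at 2.95, 1.78 and 2.14 and at 2.52, 3.90 and 2.42. On that scale both genes overlapped between the labels, and the lowest value of each was in a library labelled WT. Per 100 TPM of summed myeloid markers, *Jak3* stood at 2.43, 1.87 and 2.24 TPM in WT and 1.54, 0.947 and 2.53 TPM in cKO replicates 1 to 3, and *Stat4* at 2.28, 0.568 and 0.920 and at 0.697, 0.561 and 0.866. On this scale both overlapped too, and the lowest value of each was in cKO replicate 2. The part of these cells in the *Jak3* and *Stat4* values was not tested.

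Markers of glia and of vessels ran beside *Stat3*. The summed level of 8 Mueller glia and astrocyte markers was 6830, 12200 and 13300 TPM in WT replicates 1 to 3 and 4710, 5180 and 10700 TPM in cKO replicates 1 to 3. The library with the lowest sum, cKO replicate 1, had the lowest *Stat3*, and the library with the highest, WT replicate 3, had the highest. cKO replicate 3 was glial-rich like WT replicates 2 and 3, and its *Stat3* level of 154 TPM lay among theirs. The endothelial and pericyte markers summed to 477, 804 and 1110 TPM in WT and 352, 403 and 851 TPM in cKO replicates 1 to 3, in the same order over the 6 libraries as the glial sum except for WT replicate 2 and cKO replicate 3. What these cells add to the *Stat3* values was not tested.

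**Figure D2:**
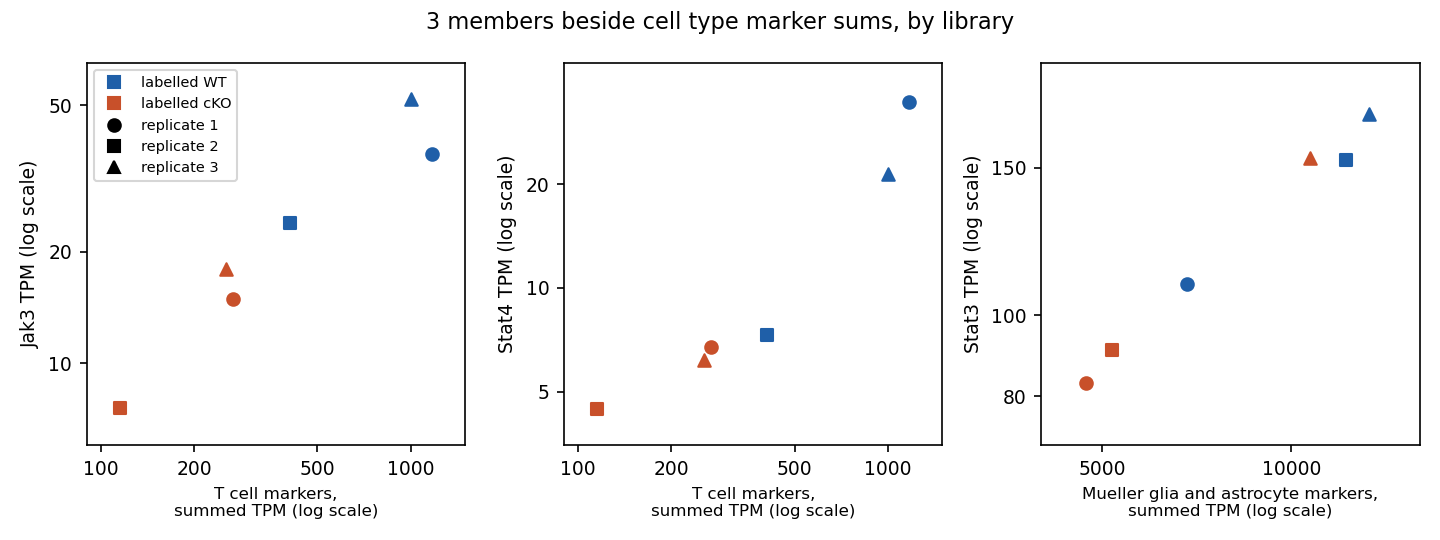
*Jak3* and *Stat4* (TPM, log scale) against summed T cell markers, and *Stat3* against summed Mueller glia and astrocyte markers (TPM, log scale), 1 point a library, blue for the label WT and orange for cKO. For *Jak3* and *Stat4* the labels fall into separate groups on both axes, with marker sums of 115 to 268 TPM under cKO, while cKO replicate 3 joins WT replicates 2 and 3 in the *Stat3* panel.

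The genes whose levels ran most like each member were sought by Pearson's r of log2(TPM + 1) over the 6 libraries, among 11386 genes with a mean TPM of at least 5, as a description; the 6 points share the labels and the cell content described above. *Jak3* ran with *Ncf1* (r = 0.999), a subunit of the phagocyte NADPH oxidase, *Icam1* (0.998), an adhesion molecule that binds leukocytes, and *Mob3a* (0.998). *Stat4* ran with *Dennd2d* (0.998), *Gimap4* (0.997), a GTPase of lymphocytes, and *Cnn2* (0.996). *Stat3* ran with *Sft2d2* and *Trim25* (both 0.994), the latter a ubiquitin ligase of the antiviral RNA sensor RIG-I, and with *Chpf2* (0.993).

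*Stat6* was nearest to *Sema4d* (0.990), a semaphorin, *Lrwd1* (0.984) and *Nfkbiz* (0.984), a nuclear regulator of NF-kB. *Stat2* was nearest to *Fam189b* (0.981), *Dbi* (0.976) and *Crim1* (0.971), *Jak1* to *Cflar* (0.980), an inhibitor of caspase 8, and *Man2b1* (0.976), and *Stat5a* to *Zfp990* (0.989), *Plekhg2* (0.986) and *Map2k3* (0.984). *Zfp990* was also the third gene for *Jak1* (0.972). *Stat5b* ran with *Zfp664* (0.998), *Atp5g1* (0.995), a subunit of the mitochondrial ATP synthase, and *Yipf4* (0.994), and *Jak2*, at its low level, with *H2-Q1* (0.961), *Tbc1d4* (0.960) and *Fbxo33* (0.956). How many genes passed an r of 0.9 differed widely, from 25 for *Jak2* to 473 for *Stat3*.

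In the ATAC-seq data, 6 of the 9 genes had a region at an end (background 37.2% of 21883 protein-coding genes), and in each it lay over or next to the transcription start. The comparison table holds a log2 read level for each group and none for a single library, so these differences have no error and no test. At *Stat3* (chr11:100939000-100940089) the group values were 103 reads in WT and 6.15 in cKO, a log2 difference of -4.07. At *Stat2* (chr10:128270214-128270802) they were 42.8 and 3.01 reads (-3.83), at *Jak2* (chr19:29251009-29251840) 39.9 and 2.99 reads (-3.74) and at *Jak1* (chr4:101264672-101265526) 52.0 and 4.11 reads (-3.66). These 4 starts had 12.6 to 16.8 times fewer reads in cKO.

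*Stat6* (chr10:127642900-127643331) and *Stat5a* (chr11:100860238-100860895) had fewer reads in WT and a smaller difference. *Stat6* had 10.9 reads in WT and 3.29 in cKO (-1.73), and *Stat5a* 15.2 and 4.72 (-1.69). The cKO value of all 6 regions lay between 2.99 and 6.15 reads, while the WT values ran from 10.9 to 103 reads. All 6 regions were lower by 1 or more on the log2 scale, as were 59.8% of all regions and the regions of 93.7% of genes with one at an end. By 2 or more, 4 of 6 were lower, against 40.7% and 73.1%. The median difference was -3.70 over the 6 regions, -2.56 over the 7169 regions at gene ends (quartiles -3.27 and -1.87) and -1.57 over all regions. A loss of reads at the start was thus the rule among genes with a region. *Stat6* and *Stat5a* lay above the upper quartile of that background. With cKO reads low at all 6 regions, the smaller differences of *Stat6* and *Stat5a* went with their lower WT reads.

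Peaks called in each library gave the same picture at the starts. Each of the 6 regions overlapped a peak in both WT libraries and in neither cKO library, as did 84.4% of all regions at gene ends and 55.1% of all regions. Counting any peak within 1000 bp of an end, 5 of the 9 genes had one in both WT libraries and in neither cKO library (background 26.9% of protein-coding genes); *Jak2* was left out by a cKO replicate 1 peak at its far end. The count was 2 within 3000 bp and 3 where the WT peaks had to share 50% of their length. The peaks over the starts reached from position -284 to 304 at *Stat2* in WT replicate 1, and at *Stat3* from position -549 to 540 relative to the start. At *Jak2* they lay almost wholly before the start, from -794 to -33 bp and from -784 to 37 bp.

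At *Stat5b*, whose window is rich in CpG, WT replicate 2 had a peak at positions -21 to 296 from the start used here (chr11:100850581). WT replicate 1 had none there, and cKO replicate 1 had one at -994 to -650. No region lay within 1000 bp of that start or of a gene end. The gene reaches upstream of that start, to chr11:100859004 in RefSeq. Within 3000 bp of an end it had 2 and 1 peaks in WT and 0 and 1 in cKO. A region also lay there, with a log2 difference of -1.69, as given for *Stat5a*. *Stat4* had no peak within 3000 bp of an end in any library. *Jak3* had none within 1000 bp of its start, one of WT replicate 1 inside the gene from 2036 bp after the start, and one of cKO replicate 1 at its far end. Within 3000 bp of an end it had 2 and 1 peaks in WT and 2 and 0 in cKO, and a region past its far end (chr8:71692404-71692841) with 11.6 reads in WT and 10.2 in cKO, a log2 difference of -0.18.

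**Figure D3:**
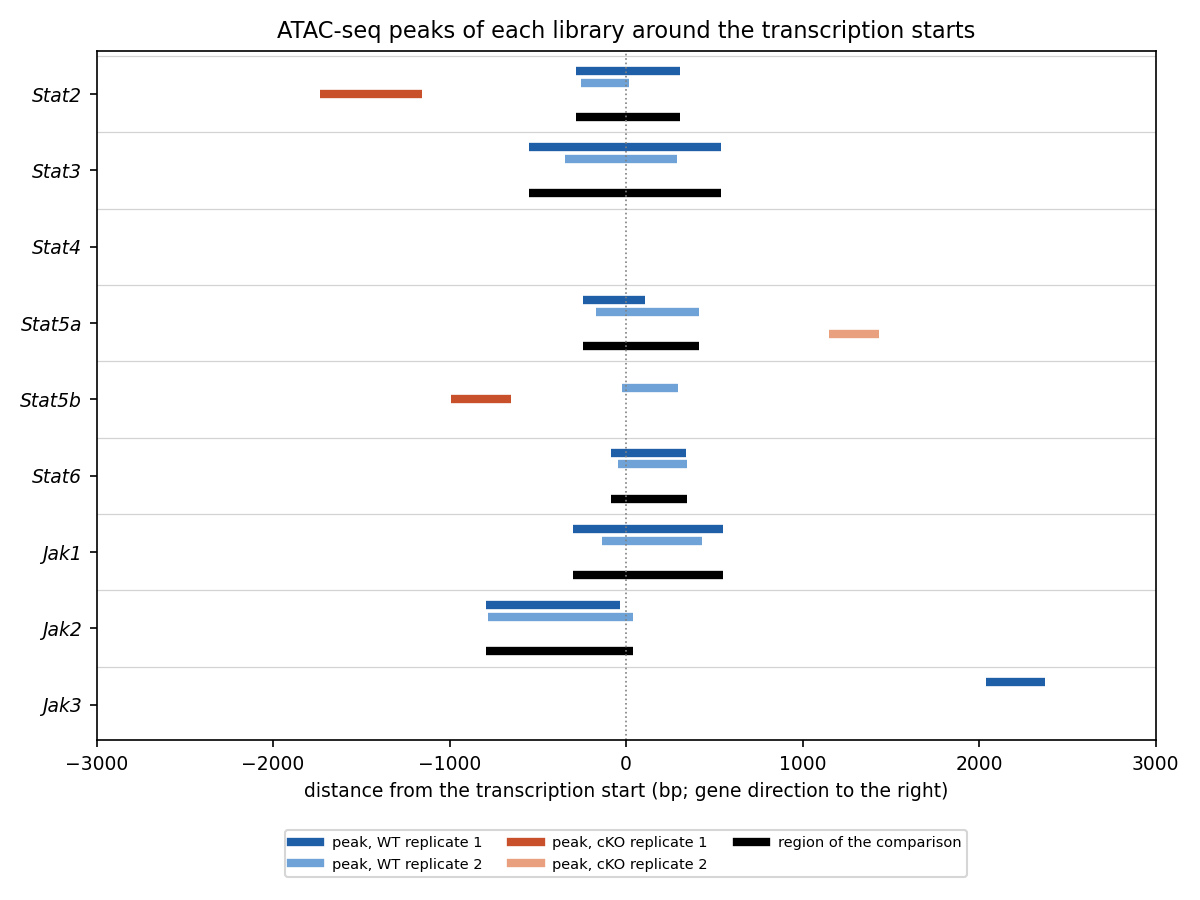
Peaks of each ATAC-seq library around the transcription start of each gene (distance from the start in bp, gene direction to the right), with the region of the comparison in black. Peaks of both WT libraries (blue) cover or adjoin the start of *Stat2*, *Stat3*, *Stat5a*, *Stat6*, *Jak1* and *Jak2*, with no peak of a cKO library (orange) there, and *Stat4* is empty.

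Over the whole of the 9 genes, 506152 bp, WT replicates 1 and 2 had 20 and 18 peaks and cKO replicates 1 and 2 had 20 and 14. With the peaks within 1000 bp of a start left out, 15 and 11 remained in WT and 19 and 14 in cKO, which overlap. *Jak1* held 8 and 5 of these in WT and 5 and 2 in cKO. *Stat3* held none in WT and 3 and 1 in cKO, and *Stat4* held 2 and 5 in WT and 3 and 2 in cKO. The number of peaks called in all was 76522 and 42265 for WT and 55902 and 68317 for cKO. A peak lay at an end of 49.4% and 42.9% of protein-coding genes in WT and of 12.4% and 12.8% in cKO. The losses at the 6 starts thus stood beside a loss at gene ends in general.

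**Figure D4:**
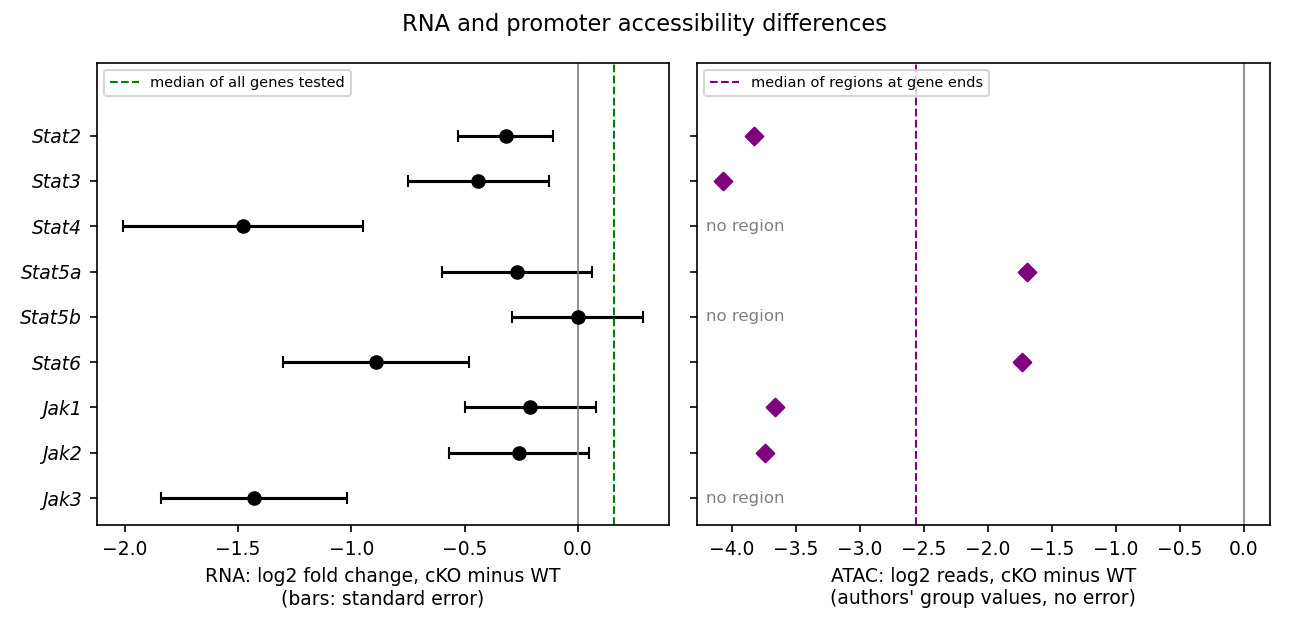
Left, log2 fold change of RNA (cKO minus WT, bars for the standard error) for each gene with the all-gene median of 0.16 dashed; right, log2 difference of ATAC-seq reads at the start (no error) with the median of -2.56 for regions at gene ends dashed. The genes with the lowest RNA values, *Stat4* at -1.48 and *Jak3* at -1.43, have no region, and those with the lowest ATAC values, such as *Stat3* at -4.07, have small RNA differences. The ATAC-seq difference largely follows the WT read level, since cKO reads are low at every region shown.

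Set side by side, the RNA and ATAC-seq values of the 6 genes with a region did not rank alike. Reads in cKO were low at all of these regions, from 2.99 (*Jak2*) to 6.15 (*Stat3*). Reads in WT ran from 10.9 (*Stat6*) to 103 (*Stat3*), so the ATAC-seq difference largely followed the WT read level. The mismatch in rank therefore cannot tell whether loss of reads and RNA change go together, and no conclusion is drawn from it. *Stat3*, *Stat2*, *Jak2* and *Jak1*, with ATAC-seq differences of -4.07 to -3.66, had RNA log2 fold changes of -0.44 to -0.21, none of which passed the test. *Jak3* and *Stat4*, with RNA values of -1.43 and -1.48, had no region at an end and could not be ranked, nor could *Stat5b*. Among all genes tested, the 7133 with a region lower by 1 or more had a median RNA log2 fold change of 0.15 and the 6087 with no region one of 0.06. The RNA and ATAC-seq libraries were separate samples. The p-values here measure the spread between RNA-seq libraries, each from pooled retinas and numbered as replicates in the labels. The study writes of biological replicates for ATAC-seq alone.

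The rest of the pathway was described with 9 lists of receptors, ligands, inhibitors, adaptors and STAT targets, 144 genes in all, of which 118 were tested. None passed an adjusted p of 0.05 in limma. At an unadjusted p under 0.05, 56 were lower and 3 higher (background 6.45% and 11.9%), and the median log2 fold change was -0.87 beside 0.16 for all genes. The same background shares apply to the counts of each list below. With the replicate block 5 were higher in place of 3, and without cKO replicate 2 the numbers were 37 lower and 1 higher.

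Of 27 receptors tested, 14 passed an unadjusted p of 0.05 as lower and 1 as higher, with a median of -0.74. *Il7r* had the lowest p. It is the IL-7 receptor chain that pairs with the common gamma chain and thus signals through *Jak3*, and was at 61.5, 25.5 and 38.0 TPM under WT and 11.5, 5.59 and 11.3 TPM under cKO (log2 fold change -2.0, SE 0.41, limma adjusted p = 0.124). *Il15ra* (-1.52) and *Il10rb* (-0.87) followed, and for these 3 the groups did not overlap. The gp130 chain *Il6st*, through which *Jak1* and *Stat3* act, was at 37.1, 88.0 and 82.2 TPM and at 37.3, 43.6 and 88.3 TPM, with overlap (-0.30, SE 0.45). The LIF receptor *Lifr* was the receptor that passed the unadjusted threshold as higher, at 15.0, 15.5 and 24.4 TPM against 23.8, 31.6 and 35.1 TPM, with overlap (0.71, SE 0.29, limma adjusted p = 0.254). The growth hormone receptor *Ghr* lay wholly higher, at 15.8, 18.8 and 18.9 TPM against 20.9, 28.8 and 37.4 TPM, without passing it (0.64, SE 0.28, limma adjusted p = 0.277). Of all genes tested, 18.7% lay wholly higher. *Il6st*, *Lifr* and *Ghr* were named after their values were seen.

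Of 24 ligands 12 passed the filter on low values, and 5 of these passed an unadjusted p of 0.05, all lower. Most of these 5, among them *Il10*, *Il27* and *Il21*, reached 1 TPM in every library labelled WT but not in every one labelled cKO. They entered the test through their WT levels, which favours a lower call, so no direction is read from this count. *Il10*, which signals through *Jak1* to *Stat3*, was at 16.2, 1.68 and 9.47 TPM under WT and 1.37, 0.127 and 0.249 TPM under cKO (-2.39, SE 0.70, limma adjusted p = 0.162). *Il27* and *Il21* were under 5 TPM in all libraries, with log2 fold changes of -1.38 and -0.95. These levels are low, and the depth behind a TPM value is not given.

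Of 19 inhibitors tested, 6 passed an unadjusted p of 0.05, all lower, and the median of -0.12 was close to 0. *Socs1*, an inhibitor of JAK kinases after interferon, was at 11.3, 12.7 and 11.7 TPM under WT and 3.49, 1.61 and 3.39 TPM under cKO (-1.79, SE 0.31, limma adjusted p = 0.124). *Usp18*, an interferon-induced brake on the type I interferon receptor, had a log2 fold change of -1.46 and *Ptpn6*, a phosphatase of blood cells, of -1.42. *Socs3*, the feedback inhibitor of gp130 and *Stat3* signals, was at 144, 154 and 258 TPM and at 87.4, 63.9 and 130 TPM, without overlap (-0.98, SE 0.34, unadjusted p = 0.0242, limma adjusted p = 0.206); it was named after its values were seen.

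Of 7 adaptors and partners, 1 was lower at an unadjusted p under 0.05 and 0 higher. That was *Irf9*, the DNA-binding partner of *Stat2*, at 115, 116 and 122 TPM under WT and 53.5, 34.0 and 82.2 TPM under cKO (-1.13, SE 0.32, limma adjusted p = 0.156). *Irf9* was lower in every library labelled cKO, whereas *Stat2* overlapped. Of the 7 genes, 4 had higher values in every library labelled cKO without passing the unadjusted threshold, among them *Stam* (0.46) and the coactivator *Crebbp* (0.64). The share of all genes tested that lay wholly higher was 18.7%.

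The interferon targets of the *Stat2*-*Irf9* complex were lower throughout in their fitted values. All 20 had fitted folds below 0, 15 at an unadjusted p under 0.05, with a median of -1.40. Over all genes tested these shares were 38.9% and 6.45%. *Oasl2*, a member of the 2-5A synthetase family, was at 107, 82.1 and 83.2 TPM under WT and 29.4, 21.3 and 36.6 TPM under cKO (-1.63, SE 0.26). *Bst2*, which tethers virus particles to the cell surface, had a log2 fold change of -2.08 and *Rtp4* of -2.10, and the limma adjusted p was 0.124 for each of these 3. The virus given differed between the labels in its insert and titre. The marker sums of T, NK, B and myeloid cells were also lower under cKO, as given above. Any part of the virus, of these cells or of the deletion in these values was not tested and cannot be told apart.

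Of 20 *Stat3* targets tested, 10 passed an unadjusted p of 0.05 as lower and 1 as higher (median -0.81). The kinase gene *Pim1* was at 150, 190 and 169 TPM under WT and 88.3, 69.5 and 77.8 TPM under cKO (-1.10, SE 0.20, limma adjusted p = 0.124). *Fgl2* had a log2 fold change of -1.63 and *Myc*, the growth regulator, of -1.74, also without overlap. *Gfap*, the filament gene of reactive glia and a marker on the glial list as well, was at 63.0, 75.7 and 116 TPM and at 17.3, 25.7 and 37.5 TPM (-1.64). *Hif1a*, the hypoxia factor, was higher, at 331, 327 and 391 TPM against 620, 654 and 469 TPM (0.72, SE 0.22); *Gfap* and *Hif1a* were named after their values were seen.

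Of 9 *Stat4* targets tested, 6 were lower at an unadjusted p under 0.05 (median -1.41), led by genes of cytotoxic lymphocytes. The granzyme gene *Gzmb* was at 84.4, 32.0 and 66.7 TPM under WT and 17.1, 5.95 and 9.44 TPM under cKO (-2.39, SE 0.48). *Prf1*, perforin, had a log2 fold change of -2.04 and *Tbx21*, the transcription factor of Th1 and NK cells, of -1.90. T and NK cells, whose markers are described above, can make these genes, but which cells made them here was not tested.

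Of 12 *Stat5* targets, 5 passed an unadjusted p of 0.05 as lower and 1 as higher (median -0.88). *Ccnd2*, cyclin D2, was at 122, 48.7 and 129 TPM under WT and 23.8, 10.6 and 22.1 TPM under cKO (-2.30, SE 0.47). *Igf1*, the growth factor induced by growth hormone through *Stat5*, went the other way, at 24.3, 14.2 and 12.5 TPM against 45.3, 63.4 and 36.7 TPM (1.48, SE 0.33, limma adjusted p = 0.124). Of 11 *Stat6* targets 5 passed the filter, all with fitted folds below 0, as 38.9% of all genes tested had. At an unadjusted p under 0.05, 2 were lower: *Socs1*, given above, and *Il4ra*, the IL-4 receptor chain (-0.76). The groups of *Il4ra* and of *Cd209a* (-1.13) overlapped.

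**Figure D5:**
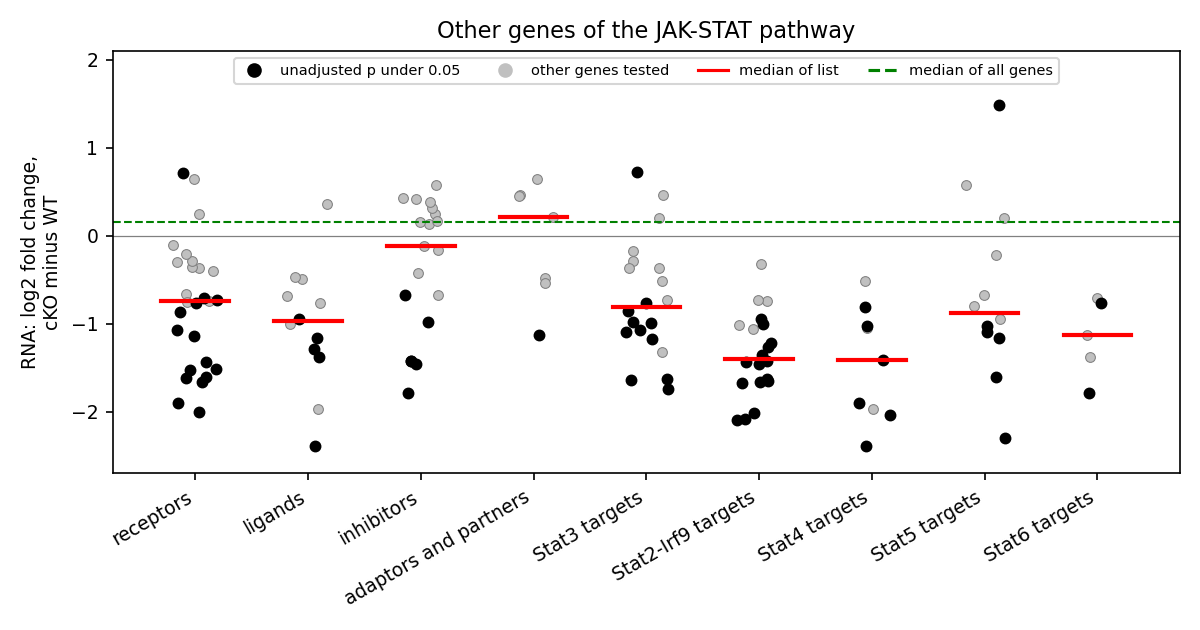
RNA log2 fold change (cKO minus WT) of each tested gene of the 9 pathway lists, black where the unadjusted p was under 0.05, with the list median in red and the all-gene median of 0.16 dashed. The lists of *Stat2*-*Irf9*, *Stat4* and *Stat6* targets lie wholly below 0, with medians of -1.40, -1.41 and -1.13. The inhibitors and the adaptors scatter about 0.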

How the data were processed

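RNA-seq levels are the TPM values the authors deposited, made with Trimmomatic, Salmon 1.0.0 and tximport. For ATAC-seq the authors deposited 1 log2 value of normalized reads per group and region, made with Bowtie2 2.3.5.1 and DiffBind on GRCm38, and the deposited peak lists, which the submitters' processing notes link to MACS2 2.2.5, hold positions, one list a library. The authors' columns of fold changes and p-values (DESeq2 1.26.0, DiffBind) were not used. Depth is not given in the sources used here. Genes reaching 1 TPM in 3 or more libraries were kept (17555 of 53974, all 9 members), and log2(TPM + 1) was compared with limma 3.58.1 in R 4.3.3 (trend, Benjamini-Hochberg adjustment over all genes tested, threshold 0.05), checked on simulated data. Single genes and shares were compared by exact two-sided permutation.

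Same-numbered RNA libraries deviated together (r = 0.334, 0.101 and 0.425), and the replicate block was run as an alternative. The labels state no pairing and libraries of different numbers were not compared, so a pairing is not shown. The main fit and the permutations were unpaired. Other alternatives were a pseudocount of 0.1, no filter, a mean TPM of at least 5, median-of-ratios scaling, limma without trend, each library left out, a window of 3000 bp, the start alone, a difference of at least 2, and a reciprocal overlap of 50%. The members and lists were chosen with earlier results of these data known. The text names the members, *Arid1a*, the 3 genes of lowest p in each pathway list, the 3 genes nearest to each member, and the first genes of marker lists, and says where others were added. Other members of the family are not reported here. Positions are counted from 1, gene ends are RefSeq's on GRCm38.p6, and 12 promoter windows matched the 9 genes. Python 3.11.15 did the rest.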

Additional observations from a re-analysis of the deposited data

How the results depend on the processing

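No member passed an adjusted p of 0.05 in limma under any of the 12 alternatives tried for RNA, and the log2 fold change kept its direction in 104 of 107 refits; the 3 that turned were *Stat5b* without WT replicate 1 (0.0016), without WT replicate 2 (0.11) and without cKO replicate 3 (0.21), within a range of -0.12 to 0.21 with each library left out. *Jak3* ranged from -1.71 to -1.09, *Stat4* from -2.07 to -1.02 and *Stat6* from -1.25 to -0.54. The number of members lower at an unadjusted p under 0.05 was 1 to 3 with each library left out. In the pathway lists, with each library left out, 37 to 64 genes were lower and 1 to 4 higher, and 5 were higher with no filter on low values and with the replicate block. With the replicate block no member or list gene passed an adjusted p of 0.05 in limma, as in the main fit. Over all genes tested, the block gave 1 gene lower at that threshold, against 0 in the main fit. Of the 9 genes, 5 had a peak in both WT and neither cKO library, 2 with a window of 3000 bp and 3 with a reciprocal overlap of 50%; leaving out an ATAC library gave 5 to 6. The cause of these moves was not tested. For ATAC-seq no paired fit could be made, since the table has group values alone and the peaks no test. Depth is unknown, so the precision of low TPM values, such as those of *Jak2*, cannot be stated.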
